A study of Mus musculus with 6 samples.

Results

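DNA replication and homologous repair genes were followed here as a set of 46 genes, taken from all array probes that were not controls and whose printed gene name was one of the 46. The set had 57 probes, and 45 of the 46 genes passed the filter on dim probes and were tested among 24757 genes on the array. Brca1 was the member that did not pass. The members were grouped by role into origin licensing (5 genes), the helicase (11), polymerase and primase (7), the sliding clamp and the finishing of new strands (9), nucleotide supply (4), the copying of chromatin (4), and repair and checkpoint (6).

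Total RNA was measured on 1 array per biopsy, with 3 biopsies of healthy skin and 3 of skin tumors that the labels call cSCC, all from female FVB/N mice, an inbred strain prone to skin tumors. Tumor-bearing mice had been painted with DMBA, a mutagen, and then with PMA (the phorbol ester also called TPA, which promotes tumor growth) for 6 weeks. DMBA was given again in week 8, and PMA went on for 14 more weeks. Healthy skin received acetone, biopsies were taken at various times of that schedule, and all had an RNA integrity number of 9 and an RNA input of 0.2 µg. Ages were not given in the sources used here, nor whether biopsies came from separate mice, so p-values measure only the spread between these samples. Treated skin free of tumors was not analysed here, so tumor and treatment cannot be told apart.

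Before S phase, the origin recognition complex, CDC6 and CDT1 load the MCM ring onto DNA, and in S phase CDC45 and the GINS complex turn that ring into the moving helicase. Polymerases then copy both strands on a sliding clamp, with nucleotides made by ribonucleotide reductase and its partners, while homologous repair mends broken or stalled forks from the sister copy. Most of these genes are transcribed as cells enter S phase, largely under E2F factors, and in healthy skin such cells lie mainly in the basal epidermis and the hair follicle.

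Values below are log2 signals relative to the 75th percentile of the same array, so 0 is that percentile, and a difference of 1 is a doubling. On each array 48.7% to 65.4% of spots were well above background, with tumor 1 at the low end. Tumor 1 also had a median background of 85 intensity units, where the other arrays had 23 to 26. Healthy skin 3 was dim, and its 75th percentile was 242 units where the others had 525 to 897. The median log2 fold change of all genes was -0.16 with this scaling, 0.21 with the arrays aligned at their medians and 0.81 with alignment to spike-in RNA. Genes higher in tumors made up 39.8%, 62.9% and 74.1% of all called genes under those scalings. The labelled tissue was checked against basal keratinocyte markers, of which limma called 0 of 7 in either direction (3 had an unadjusted p under 0.05: Krt14 higher, Krt15 and Col17a1 lower). Krt5, a keratin of the basal layer, lay between 8.60 and 9.59 on all 6 arrays. Other markers varied more: Krt15, a keratin of basal and follicle stem cells, was 7.60 to 8.01 in healthy skin and 7.65, 5.14 and 2.48 in tumors.

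Promoter sequence was examined because these genes are known E2F targets. Promoters of 38 of the 46 members were found in the RefSeq table of GRCm38.p6 (300 bases each, 250 before and 50 after the start site). The words searched, on both strands, were TTTCCCGC, TTTCGCGC, TTTGCCGC and TTTGGCGC, which are forms of the E2F site. At least 1 word was present in 15 of the 38 promoters (39.5%), against 2.60% of 27025 genes in the table and 4.02% of the tested genes that matched it. The promoter stretches of 4 members called higher in tumors and of 2 that were not called are shown 5′ to 3′ on the strand of the gene, with the matched word in capitals.

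Orc1: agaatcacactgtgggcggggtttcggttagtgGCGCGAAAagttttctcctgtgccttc

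Cdc6: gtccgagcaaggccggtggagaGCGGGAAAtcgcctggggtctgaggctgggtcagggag

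Mcm5: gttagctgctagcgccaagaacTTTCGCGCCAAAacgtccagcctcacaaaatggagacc

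Pola1: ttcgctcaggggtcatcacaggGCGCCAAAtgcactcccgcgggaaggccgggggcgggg

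Mcm7: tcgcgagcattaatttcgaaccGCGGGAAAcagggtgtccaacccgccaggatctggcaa

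Brca2: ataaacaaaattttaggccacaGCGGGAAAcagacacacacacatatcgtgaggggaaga

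The Orc1 stretch lies at chr4:108579394-108579453 on the plus strand and ends 1 base before the start site. The Cdc6 stretch is chr11:98907991-98908050 (plus strand), and the Mcm5 stretch, whose capitals hold 2 overlapping words, is chr8:75109334-75109393 (plus strand). The Pola1 stretch is chrX:93632256-93632315 (minus strand), the Mcm7 stretch is chr5:138172011-138172070 (minus strand), and the Brca2 stretch is chr5:150522431-150522490 (plus strand). All 6 stretches lie upstream of the annotated start because they were chosen among words that do. Mcm7 had another word at position 17 after the start, and Lig1 and Cdt1 had words only after it, at 27 and 33. Words were found in 8 of 15 matched members called higher (53.3%) and in 7 of 22 that were not called (31.8%), and this difference was not tested. In the lists of genes outside the set, a word was found in 8 of 32 other replication genes (25.0%), 3 of 26 other repair genes (11.5%) and 1 of 17 mitosis genes (5.88%). CCAAT, a short word common in promoters, showed another order, with 22 of 38 members (57.9%), 15 of 17 mitosis genes (88.2%) and 41.1% of all genes in the table. A match is a description of the letters and does not show that a factor binds there.

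By limma's test with Benjamini-Hochberg adjustment over all genes, 21 of 45 members tested were higher in tumors (46.7%, where 10.3% of all genes were) and 0 were lower (15.6% of all genes were). At an unadjusted p under 0.05 the fit called no member lower either. Fold changes ran from 2.07 (Rfc2) to 4.97 (Orc1) among the 20 called members with any healthy skin array well above background. The other, Fancd2, passed the filter through the tumors alone. It was at least 3.38-fold higher with the processing used here, but not called with normexp background correction. The median log2 fold change of the 45 was 1.12, and 42 were above 0. In 31 members (68.9%) all 3 tumors lay above all 3 healthy skin arrays, which was so for 20.7% of all genes, and in 0 members did all tumors lie below (29% of all genes). The 21 called members were all among the 31. Orc6, Cdt1, Mcm2, Mcm6, Gins1, Prim1, Pcna, Fen1, Rpa2 and Chaf1b were separated without passing the test. Among the 40 members well above background on all 6 arrays, 23 were called higher in a fit restricted to such probes (57.5%, against 12.0% of all genes in it).

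The count depended on single arrays. It was 8 without healthy skin 2, 10 without tumor 1 or without tumor 2, and 15, 22 and 18 without healthy skin 1, healthy skin 3 and tumor 3. In the same 6 fits 5.55% to 8.98% of all genes were called higher. Gmnn, Mcm4, Rrm2 and Chaf1a were called in every one of these fits. So were Orc1 and Fancd2, whose probes were dim in healthy skin and whose calls were lost with normexp background correction. Slide row 1 held 2 healthy skin arrays and no tumor, so a fit with slide row as a block compares healthy skin 3 alone with the tumors: 12 members were called (26.7%, against 13% of all genes), with a median log2 fold change of 0.74.

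**Figure D1:**
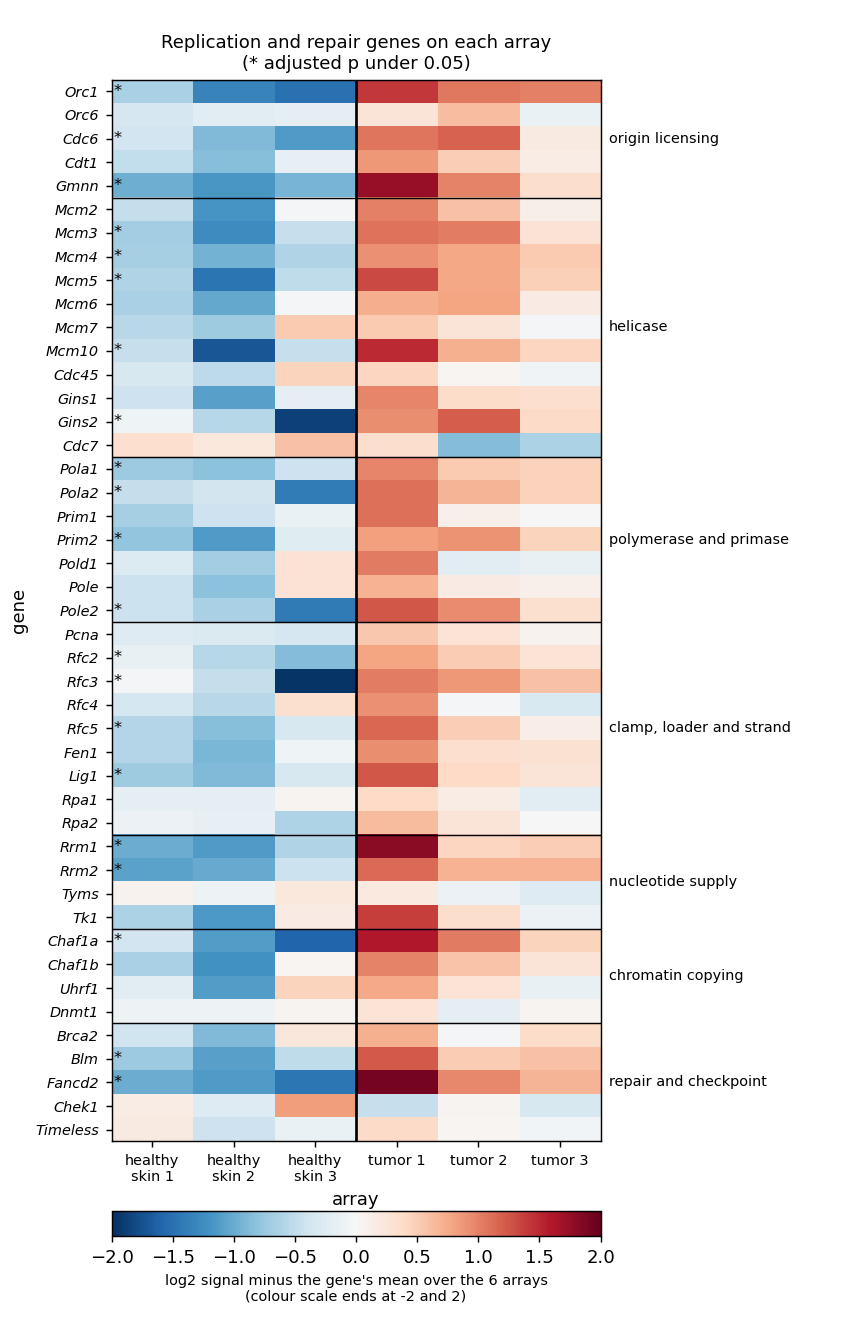
Log2 signal of each of the 45 tested genes on each of the 6 arrays, minus the gene's mean over the arrays. Rows are genes grouped by role, columns are arrays, red is above and blue below the gene's mean, and a star marks an adjusted p under 0.05. Red lies mostly in the 3 tumor columns, strongest in tumor 1. The groups overlap in 14 of the 45 genes, and Cdc7, Tyms and Chek1 have fold changes below 0 on the log2 scale.

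Origin licensing genes were higher in tumors in 3 of 5 cases, and tumors lay above healthy skin in all 5. Over all genes 10.3% were higher, and in 20.7% all tumors lay above all healthy skin arrays. The same shares stand beside the counts of the other roles below. Orc1 encodes the largest subunit of the origin recognition complex. Its signal was -4.69, -5.38 and -5.53 on the healthy skin arrays and -2.63, -2.99 and -3.04 on the tumor arrays. The groups were far apart and each was narrow. The difference was 2.31 ± 0.32 (SE, n = 3 per group; adjusted p = 0.00333), a 4.97-fold change that includes healthy skin signals near background. The array annotation spreads the Orc1 probe over 908 genomic bases, chr4:108284772-108285679 in mm9, and the probe reads as follows.

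Orc1 probe: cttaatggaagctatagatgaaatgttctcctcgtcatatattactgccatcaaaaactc

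It was well above background on only 1 healthy skin array and on all tumor arrays, and with normexp background correction the difference was 0.53 and not called. Gmnn encodes geminin, which binds CDT1 and blocks a further round of loading. Its values were -1.31, -1.5 and -1.25 in healthy skin and 1.41, 0.66 and 0.02 in tumors. Every tumor was above every healthy skin array, with tumor 1 the highest. The log2 fold change was 2.05 ± 0.39 (4.14-fold, adjusted p = 0.00985).

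Cdc6, the ATPase that brings the MCM ring to the origin, measured -2.38, -2.88 and -3.13 in healthy skin and -0.93, -0.82 and -1.82 in tumors. The groups were separated by the lower tumor 3. Its log2 fold change was 1.61 ± 0.37 (adjusted p = 0.0200). A dimmer Cdc6 probe gave 0.65 (adjusted p = 0.296), and the call was lost without healthy skin 2, healthy skin 3, tumor 1 or tumor 2 (adjusted p up to 0.0694). Cdt1, the loading partner that geminin inhibits, had a log2 fold change of 1.0 (adjusted p = 0.0578). Orc6, another subunit of the origin complex, had a log2 fold change of 0.50 (adjusted p = 0.236).

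In the helicase group 5 of 11 genes were higher, and the median log2 fold change was 1.14. The 6 MCM ring genes had log2 fold changes from 0.49 to 1.72, 3 of them called. Their proteins form the ring together, in equal numbers. Mcm5 had the largest change of the ring genes, with 1.55, 0.70 and 1.66 in healthy skin and 3.49, 2.94 and 2.64 in tumors. The lowest tumor was well above the highest healthy skin array. The difference was 1.72 ± 0.38 (3.29-fold, adjusted p = 0.0167), and the call was lost without healthy skin 2 (adjusted p = 0.0530).

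Mcm4 rose by 1.47 ± 0.27 (adjusted p = 0.00879) and Mcm3 by 1.61 ± 0.35 (adjusted p = 0.0166). Mcm3 was measured by a pair of probes on chromosome 1 that share 43 bases and both gave a log2 fold change of 1.61. The Mcm3 call was lost without healthy skin 2, tumor 1 or tumor 2 (adjusted p up to 0.0598). Within the shared bases the probes differ by A14G, counted from the left end of the stretch shown, where the capital marks the differing base.

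Mcm3, probe named by a RefSeq transcript: aagctttctttgcAattagactagtatgt

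Mcm3, probe named by a cDNA clone: aagctttctttgcGattagactagtatgt

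Mcm2, a ring subunit widely used as a marker of cycling cells, measured 0.42, -0.27 and 0.87 in healthy skin and 1.92, 1.49 and 1.02 in tumors. The groups did not overlap, although tumor 3 was close to healthy skin 3. The difference was 1.14 ± 0.39 and missed the threshold (adjusted p = 0.0708). Mcm6 was similar in size at 1.12 (adjusted p = 0.0551). Mcm7 had the smallest difference of the ring genes: healthy skin 3, at 3.82, stood as high as tumor 1, at 3.83, and above tumor 2 and tumor 3. Its log2 fold change was 0.49 (95% interval -0.43 to 1.42, adjusted p = 0.378), and it was 0.88 without healthy skin 3.

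Of the factors that start and drive the helicase, Mcm10, needed to activate the loaded ring, had the largest called change in the whole helicase group. It measured -0.32, -1.56 and -0.32 in healthy skin and 1.64, 0.85 and 0.57 in tumors. Tumors were above healthy skin throughout, and healthy skin 2 was the low array. The difference was 1.75 ± 0.46 (adjusted p = 0.0292), and its call was lost without healthy skin 2, tumor 1 or tumor 2 (adjusted p up to 0.0819). Gins2, a subunit of the GINS complex, rose by 1.69 (adjusted p = 0.0425), and its partner Gins1 had a difference of 1.12 (adjusted p = 0.0538). The Gins2 call held in only 1 of the 6 fits without an array, that without healthy skin 1. Cdc45, the third component of the moving helicase, had a log2 fold change of 0.27 with overlapping groups (adjusted p = 0.593). Cdc7, the kinase that fires origins, was the lowest of all members at -0.76 ± 0.38 (adjusted p = 0.169), and its probe was well above background on 3 healthy skin arrays and 1 tumor array.

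The polymerase and primase genes were higher in tumors in 4 of 7 cases. Pole2, the second subunit of the leading-strand polymerase epsilon, measured -1.31, -1.53 and -2.29 in healthy skin and 0.37, 0.07 and -0.56 in tumors. The groups stood apart, with healthy skin 3 the lowest. Its difference was 1.67 ± 0.38 (3.18-fold, adjusted p = 0.0195), and the call was lost without tumor 1 or tumor 2 (adjusted p up to 0.0627). Pole, which encodes the catalytic subunit of the same enzyme, had a log2 fold change of 0.64 with overlapping groups (adjusted p = 0.231) on its brightest probe and 1.38 (adjusted p = 0.0808) on a dimmer one.

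Pola2, the regulatory subunit of the polymerase alpha and primase complex that starts each new fragment, measured -4.13, -4.02 and -5.05 in healthy skin and -2.54, -2.97 and -3.18 in tumors. No tumor reached down to the healthy skin values. The difference was 1.5 ± 0.37 (adjusted p = 0.0243), with 2 of 3 healthy skin arrays well above background. It was 0.24 with normexp correction, and the call was also lost without tumor 1 or tumor 2 (adjusted p up to 0.0712). The other subunits of that complex had log2 fold changes of 1.31 for the catalytic Pola1 (adjusted p = 0.0169), 1.44 for the large primase subunit Prim2 (adjusted p = 0.0183) and 0.80 for the small primase subunit Prim1 (adjusted p = 0.147). The Pola1 call was lost without healthy skin 1 or healthy skin 2 (adjusted p up to 0.0649), and that of Prim2 also without tumor 1 or tumor 2 (up to 0.0664). Pold1, the catalytic subunit of the lagging-strand polymerase delta, had a difference of 0.45 with overlapping groups (adjusted p = 0.469).

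Among the clamp, loader and strand genes 4 of 9 were higher and all 9 fold changes were above 0. Pcna, the sliding clamp, measured 3.45, 3.42 and 3.37 in healthy skin and 4.25, 3.97 and 3.77 in tumors. Healthy skin was tightly grouped and every tumor lay above it. The difference was only 0.58 ± 0.27, a 1.5-fold change that missed the threshold (adjusted p = 0.141). The array annotation places only 33 bases of the Pcna probe on the genome.

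Rfc3, a subunit of the clamp loader, measured -1.12, -1.55 and -3.04 in healthy skin and -0.06, -0.22 and -0.50 in tumors. Healthy skin 3 was far below the other healthy skin arrays. The difference was 1.64 ± 0.50 (adjusted p = 0.0483), or 1.08 without healthy skin 3, and the call was lost without healthy skin 2 or any tumor (adjusted p up to 0.121). Lig1, the ligase that seals lagging-strand fragments, measured 2.17, 2.0 and 2.56 in healthy skin and 4.11, 3.28 and 3.14 in tumors. Tumor 1 was highest and the groups did not overlap. Its difference was 1.27 ± 0.35 (adjusted p = 0.0368), with the call lost without healthy skin 1, healthy skin 2, tumor 1 or tumor 2 (adjusted p up to 0.109).

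The loader subunits Rfc5 and Rfc2 had differences of 1.17 (adjusted p = 0.0444) and 1.05 (adjusted p = 0.0433), and Rfc4 had 0.39 (adjusted p = 0.508). A dimmer Rfc4 probe, well above background on all arrays, gave 0.86 (adjusted p = 0.120), with every tumor above every healthy skin array. The Rfc2 call was lost in each of the 6 fits without an array, and that of Rfc5 in 5 of them, all but that without tumor 3. Fen1, the nuclease that trims primer flaps, had a difference of 1.05 that narrowly missed the threshold (adjusted p = 0.0566). Rpa1 and Rpa2, which coat exposed single strands, had differences of 0.23 (adjusted p = 0.579) and 0.60 (adjusted p = 0.180). A dimmer Rpa1 probe gave 0.42 (adjusted p = 0.278). Without healthy skin 2, tumor 1 or tumor 2, no gene of this group was called.

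**Figure D2:**
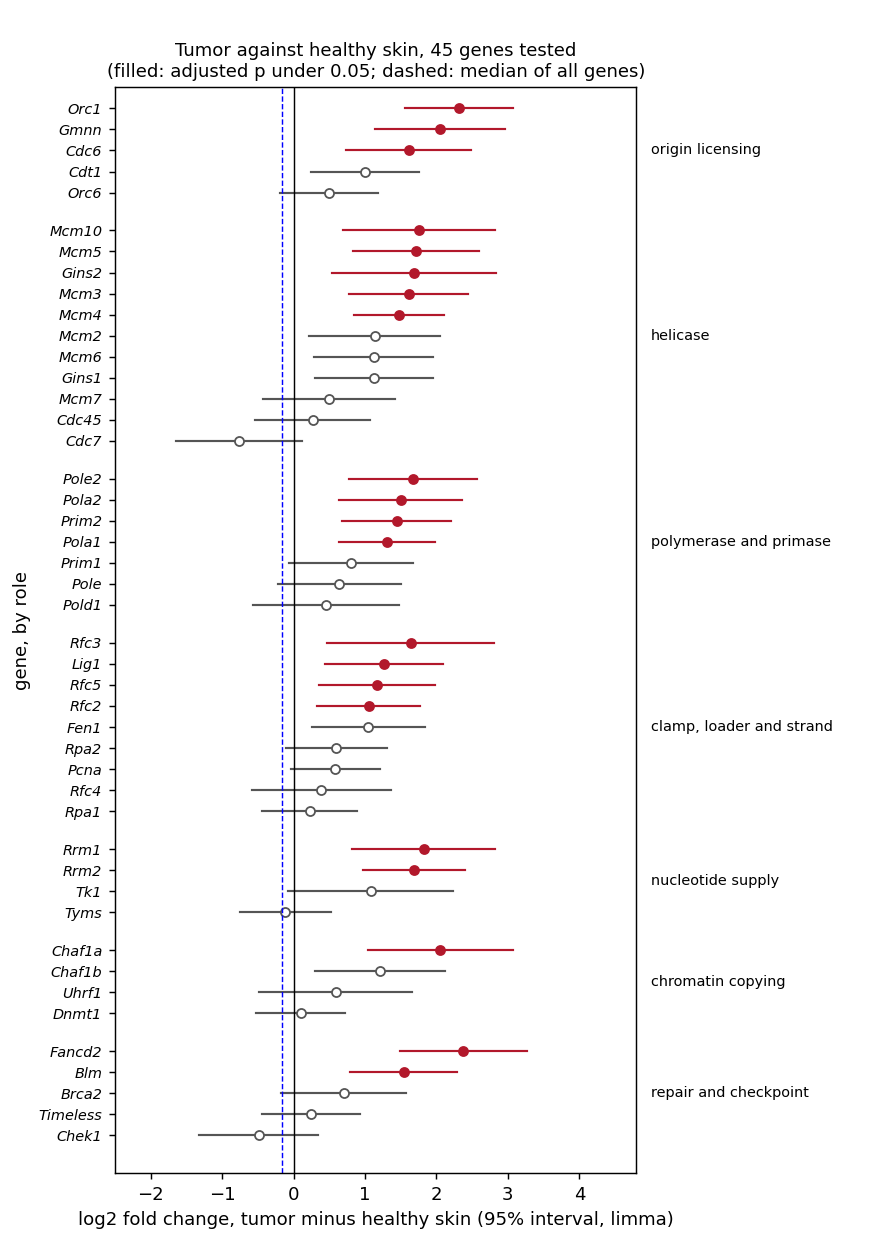
Log2 fold change of tumor over healthy skin for the 45 tested genes, with 95% intervals from limma, grouped by role and sorted within each role. Filled points have an adjusted p under 0.05 and the dashed line is the median of all genes, -0.16. All 21 filled points lie above 1, the lowest being Rfc2 at 1.05, and the point of Fancd2 rests on healthy skin signals near background.

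Nucleotide supply was split, with both subunits of ribonucleotide reductase higher and thymidylate synthase not. Rrm1, the large subunit, measured 1.71, 1.57 and 2.11 in healthy skin and 4.51, 3.14 and 3.20 in tumors. The gap between groups was wide, and tumor 1 stood above the other tumors. The difference was 1.82 ± 0.43 (3.53-fold, adjusted p = 0.0207), with the call lost without healthy skin 1 or healthy skin 2 (adjusted p up to 0.0652). Rrm2, the small subunit whose level limits the enzyme in S phase, measured 2.03, 2.09 and 2.67 in healthy skin and 4.24, 3.80 and 3.81 in tumors. Both groups were narrow and did not overlap. The difference was 1.68 ± 0.31 (3.21-fold, adjusted p = 0.00869).

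Tyms, which makes the thymidine nucleotide, measured -2.25, -2.43 and -2.11 in healthy skin and -2.13, -2.44 and -2.57 in tumors. The groups overlapped almost entirely. Its log2 fold change was -0.12 (95% interval -0.75 to 0.52, adjusted p = 0.774), and its sign turned to 0.16, 0.25 and 0.85 under quantile, median and spike-in scaling. Tk1, the salvage kinase for thymidine, had a difference of 1.08 (adjusted p = 0.144), with healthy skin 3 at 1.99 above tumor 3 at 1.71.

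Of the genes that copy chromatin, only Chaf1a was called. It encodes the large subunit of CAF-1, which deposits histones behind the fork, and measured -0.29, -1.03 and -1.50 in healthy skin and 1.69, 1.12 and 0.53 in tumors. The lowest tumor was above the highest healthy skin array. The difference was 2.06 ± 0.43 (4.16-fold, adjusted p = 0.0143), and 1.49 without healthy skin 3 and tumor 1 together (adjusted p = 0.0603). Chaf1b, its partner subunit, had a difference of 1.21 (adjusted p = 0.0574), and a dimmer probe gave 1.07 (adjusted p = 0.0930). Uhrf1, which guides maintenance methylation to new DNA, had a difference of 0.59 with overlapping groups (adjusted p = 0.364), and a dimmer probe gave 0.89 (adjusted p = 0.254). Dnmt1, the maintenance methyltransferase itself, had one of 0.10 (95% interval -0.52 to 0.72, adjusted p = 0.799).

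In repair and checkpoint, 2 of 5 tested genes were higher. Fancd2, the Fanconi anemia protein that acts at crosslinked DNA and blocked forks, was near background in healthy skin. It measured -5.30, -5.44 and -5.75 in healthy skin and -2.39, -3.35 and -3.62 in tumors. No healthy skin array was well above background and all tumors were, so Fancd2 passed the filter through the tumors alone. Against the lowest signal well above background it was at least 3.38-fold higher in tumors, with the processing used here. The fitted difference was 2.37 ± 0.38 (adjusted p = 0.00532). Each healthy skin signal was below the lowest signal called well above background on its array, so that SE and p do not measure the difference. The fitted difference was 1.35 in the authors' deposited values, and 0.37 and not called with normexp correction. Its probe lies at chr6:113541170-113541229 in mm9.

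Fancd2 probe: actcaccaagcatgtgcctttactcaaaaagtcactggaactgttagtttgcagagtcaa

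Blm, the helicase that unwinds recombination intermediates, measured -1.30, -1.65 and -1.07 in healthy skin and 0.65, -0.07 and 0.02 in tumors. The groups were apart and all arrays were well above background. The difference was 1.54 ± 0.32 (2.91-fold, adjusted p = 0.0139), and the call was lost without healthy skin 2 (adjusted p = 0.0536). Brca1, the ubiquitin ligase that directs breaks to homologous repair, measured -6.20, -7.26 and -6.50 in healthy skin and -5.33, -5.65 and -5.65 in tumors. Only 1 tumor array, and no healthy skin array, was well above background for it, so no fold change is given. Brca2, which acts in homologous repair of resected ends, had a difference of 0.71 with overlapping groups (adjusted p = 0.196).

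Chek1, the kinase that restrains origins and mitosis when forks stall, measured -4.62, -5.02 and -3.93 in healthy skin and -5.22, -4.71 and -5.09 in tumors. The groups overlapped, and 2 arrays of each were well above background. Its difference was -0.49 (95% interval -1.32 to 0.35, adjusted p = 0.338), and it was 0.48 with spike-in scaling. Timeless, which holds the helicase and polymerase together, had a difference of 0.25 (adjusted p = 0.554), and a dimmer probe gave -0.14 (adjusted p = 0.758).

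The arrays did not contribute alike within groups. Tumor 1 was the highest tumor in 39 of 45 members (86.7%, against 46.2% of all genes), and tumor 3 was the lowest tumor in 37. Healthy skin 3 was the highest healthy skin array in 32 members (71.1%, against 56.2% of all genes) and the lowest in 11. It was highest in 23 of the 28 members with a mean signal above the 75th percentile, and in 9 of the 17 below it, where it was lowest in 8. The median member signal was 1.04, 0.61 and 0.87 in healthy skin and 1.92, 1.49 and 1.23 in tumors. Healthy skin 3 was the dimmest array and tumor 1 the array of highest background. Without both of them 15 members were called higher (33.3%, against 8.61% of all genes), and the median log2 fold change was 1.03. In that fit 1 member was lower (Cdc7, at -1.02, adjusted p = 0.0416), as were 3025 of 24757 genes. The Cdc7 probe was well above background on only 1 tumor array. Its log2 fold change was 0.0093 in the authors' deposited values with all arrays. Another Cdc7 probe was too dim to be tested.

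Genes of the same pathways outside the set were listed by function. Of 40 other replication genes, 12 were higher in tumors (30.0%, against 10.3% of all genes) and 0 lower (15.6% of all genes were). The other 28 were not called, and the median log2 fold change was 0.82. Pold4, a small polymerase delta subunit, measured -0.11, -0.03 and -1.17 in healthy skin and 2.02, 1.87 and 1.49 in tumors, a difference of 2.23 (adjusted p = 0.00696). Dbf4, the activating partner of the CDC7 kinase, measured -2.27, -2.47 and -3.57 and then -0.46, -0.31 and -0.95, a difference of 2.20 (adjusted p = 0.00940). Dbf4 was thus called higher while Cdc7 was not called.

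Of 36 other repair genes tested, 8 were higher (22.2%, against 10.3% of all genes) and 1 was lower (15.6% of all genes were), with a median of 0.68. Exo1, the exonuclease that resects broken ends, measured -1.16, -2.22 and -1.46 in healthy skin and 1.2, 1.15 and 0.23 in tumors, a difference of 2.48 (5.56-fold, adjusted p = 0.00607). Every tumor lay above every healthy skin array. Xrcc3, a gene of homologous repair, was the gene that fell, from -1.10, -0.89 and 0.08 to -1.92, -2.98 and -2.37 (difference -1.79, adjusted p = 0.0218), and its call was lost without tumor 2 or tumor 3 (adjusted p up to 0.0702).

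Mitosis genes were higher in 13 of 19 cases (68.4%, against 10.3% of all genes), with a median log2 fold change of 1.66. Top2a, the topoisomerase that untangles chromosomes, rose by 2.74 (adjusted p = 0.0191), and Plk1, a kinase of mitotic entry, by 2.40 (adjusted p = 0.00715). The Top2a call was lost without tumor 1 or tumor 2 (adjusted p up to 0.0614). Without tumor 2, 5 of 40 other replication, 2 of 36 other repair and 7 of 19 mitosis genes were higher, against 5.55% of all genes. The other repair share was then near that of all genes. In the same order, the counts without healthy skin 2 were 5, 3 and 10, against 5.98% of all genes. They were 6, 3 and 8 without tumor 1 (6.50% of all genes) and 6, 6 and 10 without healthy skin 1 (6.79%).

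**Figure D3:**
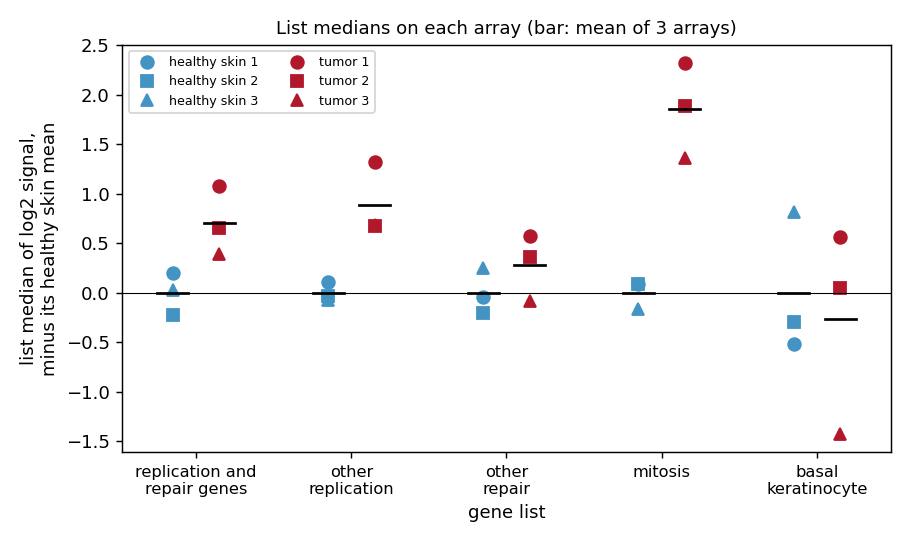
Median log2 signal of each gene list on each of the 6 arrays, minus the mean of the 3 healthy skin medians of that list. Blue symbols are healthy skin, red symbols are tumors, and bars are means of 3 arrays. All tumors lie above all healthy skin arrays for the replication and repair set, other replication and mitosis, but not for other repair or basal keratinocyte markers.

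Markers of other cell types were compared in the same fit, in which 10.3% of all genes were called higher and 15.6% lower. In whole tissue, fewer cells of a type and less RNA per cell cannot be told apart. The 10 skeletal muscle markers were all lower in tumors, with a summed signal (in multiples of the 75th percentile) of 1137 to 1714 in healthy skin and 34.5 to 90.6 in tumors. Of 7 adipocyte markers tested, 6 were lower, with sums of 90.0 to 408 and 3.97 to 30.2. Leukocyte markers had sums of 246 to 306 and 507 to 807. Of 12 tested, 2 were higher (S100a8 and S100a9, alarmin genes) and 2 lower (Cd3e and Cd3g, of the T cell receptor complex). Without S100a8 and S100a9 the other 10 summed to 234 to 303 in healthy skin and 155 to 200 in tumors. Csf3r alone made up most of these sums on every array. Its log2 signals were 7.59, 7.93 and 8.02 in healthy skin and 7.09, 7.09 and 7.07 in tumors (adjusted p = 0.0711). Among all 12, 7 log2 fold changes were above 0 and the median was 0.51. Of 18 hair matrix and shaft markers 3 were lower (Hoxc13, Lef1 and Msx2), with sums of 665, 20.0 and 16.3 in healthy skin and 171, 67.4 and 150 in tumors. Healthy skin 1 stood apart from the other healthy skin arrays in these markers. Basal keratinocyte markers had sums of 823 to 1414 and 795 to 1004. Fibroblast markers had sums of 229 to 418 and 268 to 561. Of 7 tested, Col1a1, a collagen chain, was higher, and Dcn and Dpt, matrix proteins, were lower. Endothelial markers had sums of 18.6 to 78.3 and 11.9 to 14.3, and of 6 tested Emcn was higher and Vwf lower. Without Kdr, which was high on healthy skin 3, the sums were 7.40 to 12.0 and 4.43 to 7.23. In healthy skin most of that was Vwf, with log2 signals of 2.35, 3.01 and 3.18. The other 4 (Pecam1, Cdh5, Tie1 and Emcn) had log2 fold changes above 0, and the median of the 6 was 0.18. Lep, Shh and Ly6g did not pass the filter on dim probes. The part of these marker differences in the replication and repair differences was not tested.

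**Figure D4:**
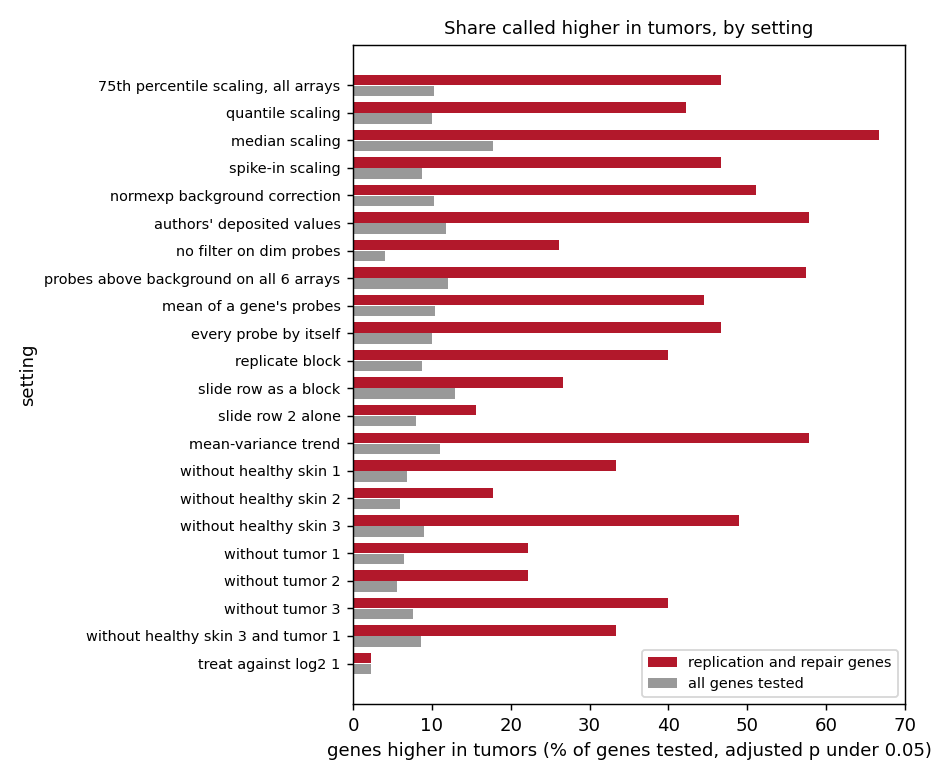
Percent of genes tested that were called higher in tumors under each processing setting. Red bars are the replication and repair set and grey bars all genes. With 75th percentile scaling and all arrays the bars stand at 46.7% and 10.3%, and under the test against a log2 fold change of 1 at 2.22% and 2.30%.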

How the data were processed

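The deposited intensity values, per the file headers, came from 1-colour Agilent arrays read by Agilent Feature Extraction 10.7.3.1 with background subtraction. The authors' deposited value table holds log2 values that rank spots as the median signal does, and the submitters' processing notes name limma without a version. How that table was centred or background-corrected is not given in the sources used here.

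Here, log2 processed signals were set against the 75th percentile of each array's 59305 spots that were not controls. Outlier spots were left out and spots of a probe averaged. Of the probes, 34284 were kept because 3 or more of 6 arrays were well above background, and the brightest probe stood for its gene. The fit used lmFit and eBayes of limma 3.58.1 (R 4.3.3; two-sided, adjusted p under 0.05) without a block, since same-numbered arrays did not deviate together (correlations of 0.10, 0.13 and -0.08). The script was tested on simulated data. For an "at least" fold, each dim array counts at its own signal or at the lowest signal called well above background, whichever is higher. With 3 arrays per group, an exact permutation test of a single gene could not go below p = 0.1.

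The members, lists and tests were chosen with earlier results of these data known. All members are named. Values on every array are given for the 2 largest called changes of each role, for Mcm2, Pcna, Rrm1, Rrm2, Brca1 and Chek1, and, outside the set, the 2 largest called changes per pathway list and direction are named. Other genes were named after their values were seen. A gene that the rule names is not reported here. Probe positions are those of the array annotation (mm9), and promoters are from RefSeq. The alternatives, 21 in number, are given in the closing section.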

Additional observations from a re-analysis of the deposited data

How the results depend on the processing

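The direction of the set's median held under all 21 alternatives, and it stayed 1.07 to 1.5 above the median of all genes. The median log2 fold change was 1.49 with median scaling, 2.09 with spike-in scaling and 0.74 with slide row as a block or with slide row 2 alone. Members higher in tumors numbered 12 with no filter on dim probes (26.1%, against 4.1% of all genes). They numbered 12 with slide row as a block, where the share of all genes is given above. No count is given for slide row 2 alone, which holds 1 healthy skin array. Only 1 (Orc1) was called when tested against a log2 fold change of 1, and that 2.22% was no larger than the 2.30% of all genes. Members called numbered 8 to 22 when single arrays were left out, against 5.55% to 8.98% of all genes. They numbered 30 with median scaling (66.7%, against 17.7% of all genes). With the authors' deposited values or a mean-variance trend they numbered 26 (57.8%, against 11.8% and 11.01% of all genes). The number lower was 1 (Cdc7, on a dim probe) without healthy skin 3 and tumor 1, where 3025 of 24757 genes were lower. With the replicate block 18 members were called (40.0%, against 8.78% of all genes), all among the 21. The labels do not say whether replicate numbers pair the samples. In that fit other replication genes fell from 12 to 7 calls. Signs turned in members that were not called. Tyms was 0.16, 0.25 and 0.85 with quantile, median and spike-in scaling and 0.083 in the authors' deposited values. Cdc7 was 0.21 and Chek1 0.48 with spike-in scaling, and in the deposited values Cdc7 was 0.0093, Chek1 0.00030 and Rpa1 -0.0099. With slide row as a block, and with slide row 2 alone, Cdc45 was -0.32, Mcm7 -0.28, Pold1 -0.068, Rfc4 -0.13 and Uhrf1 -0.16. Dnmt1 ranged from -0.0089 (without tumor 1) to 0.21 when single arrays were left out. The causes were not tested. Dim probes limit Orc1, Pola2, Fancd2, Chek1, Cdc7 and Brca1.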
